A study of Mus musculus with 6 samples.

Results

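Integrins are the cell's receptors for the extracellular matrix, and the 10 genes described here encode subunits of them: Itga1, Itga3, Itga5, Itga6, Itga9 and Itgav for alpha subunits, and Itgb1, Itgb3, Itgb4 and Itgb5 for beta subunits. The members were given as a list of gene symbols, and each was found as 1 row of the table of 51912 Ensembl genes. They are 10 of the 26 integrin subunits looked up. The cells were R1 mouse embryonic stem cells, an established line, which had been kept in 2iLIF medium (inhibitors of MEK and GSK3 with the cytokine LIF, which hold the naive state) and then moved to N2B27, a serum-free medium, with 100 ng/ml FGF2. RNA was sequenced after 24 h in 3 libraries and after 48 h in another 3, so the agent, dose and medium are the same in both groups and time is what differs. No cells without FGF2 were analysed here, and the labels do not say whether replicates were separate cultures, so p-values measure the spread between these libraries, which may be technical.

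Each receptor is made of 1 alpha and 1 beta subunit, and the alpha subunit largely sets which matrix protein is bound. Itgb1 is the common partner: with Itga3 or Itga6 it makes laminin receptors, with Itga5 the main fibronectin receptor, with Itga1 a collagen receptor and with Itga9 a receptor for tenascin-C and osteopontin. Itgav pairs with several beta subunits, Itgb3 and Itgb5 among them, in receptors that read the RGD tripeptide of fibronectin, vitronectin and osteopontin. In pluripotent cells, attachment to laminin and fibronectin through integrins is known to affect survival and the organisation of the epiblast.

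Between 24 h and 48 h of FGF2 the subunits changed in both directions. Itgb1, Itga3 and Itga1 rose, and Itga5, Itga6, Itga9, Itgav, Itgb3, Itgb4 and Itgb5 fell. All 10 members passed the filter on low counts, and the quasi-likelihood test of edgeR called all 10 (Benjamini-Hochberg adjusted p under 0.05), 3 upward and 7 downward. The background is high: 62.8% of the 14889 genes tested changed, 30.9% upward and 31.9% downward. The change was at least 2-fold for 4 members, against 11.2% of genes tested, and 3 of them were downward, against 6.63%. The median log2 fold change of the members was -0.33, beside -0.01 for all genes tested, and the median size of change was 0.57, beside 0.26. The members were chosen with earlier results of these data known, so setting them beside all genes is a description only. The values of the 24 h and 48 h libraries did not overlap for any member, and they did not overlap for 66.9% of all genes tested.

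**Figure D1:**
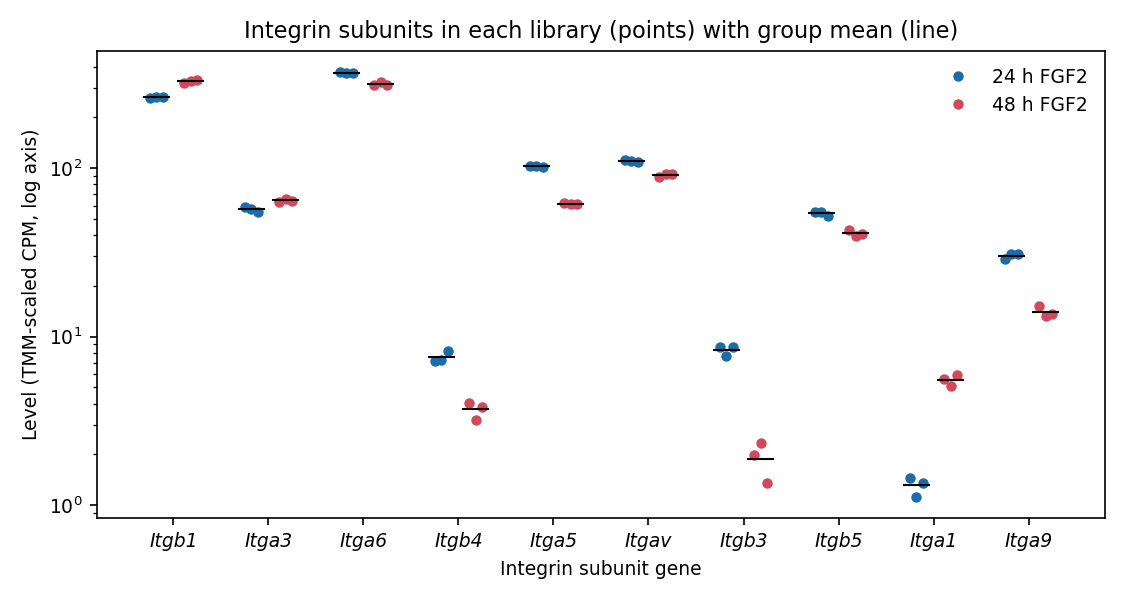
Level of each integrin subunit in the 6 libraries, in CPM (the count divided by its library's total after TMM scaling), on a log axis; points are libraries and lines are group means (n = 3). The 24 h and 48 h points are apart for all 10 genes, with the widest gaps for Itgb3 and Itga1 and the narrowest for Itga3.

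The libraries held between 19574969 and 23133148 estimated counts. The pluripotency list (Pou5f1, Sox2, Nanog, Utf1, Zfp42 and Tdgf1) was expressed in all libraries. Its summed level was 3731 to 3809 CPM at 24 h and 2559 to 2645 CPM at 48 h. Its genes did not move together. The log2 fold changes were -1.99 for Nanog, -1.06 for Zfp42, -0.37 for Sox2, -0.24 for Tdgf1, -0.07 for Pou5f1 and 0.60 for Utf1. The 7 fibroblast or feeder markers summed to between 2.54 and 3.35 CPM at 24 h and between 2.53 and 3.83 CPM at 48 h. Lum and Postn were at 0 counts in all libraries. These markers did not move together: Dcn was at 0 counts at 24 h and at a mean of 1.21 CPM at 48 h, while Col1a1 fell from 1.03 to 0.304 CPM. The 6 trophoblast markers were each under 1 CPM at both times and summed to 0.601 to 1.48 CPM at 24 h and 0.967 to 1.74 CPM at 48 h. The 6 primitive endoderm markers summed to 9.06 to 10.6 CPM at 24 h and 5.62 to 6.27 CPM at 48 h, and 4 of them were under 1 CPM at both times. Most of the fall in this sum was that of Gata4, with means of 5.84 CPM at 24 h and 2.25 CPM at 48 h. Dab2 was at 2.83 and 2.52 CPM and was not called (edgeR adjusted p = 0.388). The part of these cell types in the results below was not tested. In such bulk RNA fewer cells of a type cannot be told apart from less RNA per cell.

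Sequence just before the start site is shown for 4 members: Itgb1 and Itga5, the partners of the fibronectin receptor that moved in opposite directions, Itgb5, a beta subunit that fell, and Itga1, the alpha subunit that rose most. Each is the 250 bases before the RefSeq start (GRCm38.p6), 5′ to 3′ on the gene's own strand, and capitals mark the GC box GGGCGG or its complement CCGCCC, a site bound by Sp and Kruppel-like factors.
Itgb1 (chr8:128685404-128685653, plus strand): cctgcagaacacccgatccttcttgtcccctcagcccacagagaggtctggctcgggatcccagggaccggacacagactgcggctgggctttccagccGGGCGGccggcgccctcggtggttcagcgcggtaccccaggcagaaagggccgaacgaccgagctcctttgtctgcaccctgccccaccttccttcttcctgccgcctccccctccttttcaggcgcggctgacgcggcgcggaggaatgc
Itga5 (chr15:103366792-103367041, minus strand): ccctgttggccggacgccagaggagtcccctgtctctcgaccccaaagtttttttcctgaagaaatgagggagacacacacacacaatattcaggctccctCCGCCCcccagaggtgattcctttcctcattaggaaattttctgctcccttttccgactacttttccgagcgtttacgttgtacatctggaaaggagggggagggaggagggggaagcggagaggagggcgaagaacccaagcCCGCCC
Itgb5 (chr16:33829415-33829664, plus strand): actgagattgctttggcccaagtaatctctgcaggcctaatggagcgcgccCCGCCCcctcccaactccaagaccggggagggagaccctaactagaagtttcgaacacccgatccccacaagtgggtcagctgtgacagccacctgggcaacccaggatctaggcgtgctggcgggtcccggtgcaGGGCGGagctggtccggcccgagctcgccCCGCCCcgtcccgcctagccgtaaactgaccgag
Itga1 (chr13:115101965-115102214, minus strand): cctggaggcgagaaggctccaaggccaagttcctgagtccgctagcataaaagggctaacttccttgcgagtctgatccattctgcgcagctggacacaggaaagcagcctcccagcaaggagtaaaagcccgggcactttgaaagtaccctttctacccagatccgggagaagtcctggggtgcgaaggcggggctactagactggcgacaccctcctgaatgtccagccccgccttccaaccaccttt
The GC content of these windows was 68.0% for Itgb1, 55.6% for Itga5, 65.2% for Itgb5 and 57.6% for Itga1, and the median over all 32851 windows of the table was 52.4%. The GC box stood once in the Itgb1 window, 2 times in that of Itga5, 3 times in that of Itgb5 and 0 times in that of Itga1. Of all windows, 32.7% hold it on either strand. TATAAA was found in 12.4% of all windows, TGANTCA, an AP-1 site, in 6.75%, and CCGGAA, an ETS site, in 12.0%. All were absent from the 4 windows shown, on either strand. Among the windows not shown, those of Itgav and Itga9 held 0 GC boxes. Those of Itga3 held 3 and 1, and the window with 3 also held 1 ETS site. The Itga9 window lies before a RefSeq start 105002 bases inside the annotated gene. The Itga3 window with 1 GC box lies before a start 7603 bases inside. These windows therefore do not show the sequence before the first annotated start of their genes. A match is a description of the letters only. The table had windows for 7 of the 10 members, without Itga6, Itgb3 and Itgb4.

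Itgb1 (ENSMUSG00000025809, chr8:128685654-128733200 in GRCm38, plus strand), the shared beta subunit, was at 261.1, 265.8 and 264.5 CPM in the 24 h libraries and at 321.7, 328 and 331.4 CPM in the 48 h libraries. Every 48 h library was above every 24 h library. This was a log2 fold change of 0.31 ± 0.02 (standard error; edgeR adjusted p = 6.57e-10), or a rise of 24.0%. It is the only one of the 4 beta members that rose.

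Among the laminin receptors, the 2 alpha subunits went different ways. Itga6 (ENSMUSG00000027111, chr2:71745616-71858416, plus strand), which pairs with Itgb1 or with Itgb4, was at 372.3, 366.2 and 366.2 CPM at 24 h and at 309.9, 323.2 and 311.5 CPM at 48 h. Its log2 fold change was -0.23 ± 0.02 (standard error; edgeR adjusted p = 5.73e-08), and per length it remained the highest alpha subunit. Itga3 (ENSMUSG00000001507, chr11:95044474-95076801, minus strand) was at 58.97, 57.57 and 54.71 CPM at 24 h and at 63.33, 65.73 and 64.19 CPM at 48 h. This was the smallest change of the 10, a log2 fold change of 0.18 ± 0.04 (edgeR adjusted p = 0.00059), which became 0.12 with library size as the only scaling. The groups lay close together for Itga3 without overlapping. Itgb4 (ENSMUSG00000020758, chr11:115974709-116008412, plus strand), whose long cytoplasmic tail links laminin receptors to keratin filaments in hemidesmosomes, was at 7.16, 7.28 and 8.22 CPM at 24 h and 4.05, 3.20 and 3.83 CPM at 48 h. It fell by 1.03 ± 0.12 on the log2 scale (edgeR adjusted p = 1.14e-06). The counts of Itga6 were not whole numbers, so reads shared with similar sequences were divided by the authors' estimation and its level carries that uncertainty.

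Itga5, Itgav, Itgb5 and Itgb3, subunits of RGD-binding receptors, fell, whereas Itgb1, the partner of Itga5, rose as given above. Itga5 (ENSMUSG00000000555, chr15:103344286-103366763, minus strand), the fibronectin receptor's alpha subunit, was at 103, 103.3 and 102 CPM at 24 h and at 61.91, 60.97 and 60.94 CPM at 48 h. The replicates of each time were within 1.4 CPM of each other, and the log2 fold change was -0.75 ± 0.03 (edgeR adjusted p = 1.31e-12), so that it fell by 40.4%. Itgav (ENSMUSG00000027087, chr2:83724397-83806916, plus strand) was at 112.1, 109.6 and 108.4 CPM at 24 h and at 89.02, 92.6 and 92.42 CPM at 48 h, a log2 fold change of -0.27 ± 0.03 (edgeR adjusted p = 5.59e-07). Itgav fell by less than Itga5 in size, and its times were also apart. Itgb5 (ENSMUSG00000022817, chr16:33829665-33949338, plus strand), a vitronectin receptor subunit, was at 54.77, 55.27 and 51.7 CPM at 24 h and at 42.85, 39.76 and 40.5 CPM at 48 h, with a log2 fold change of -0.39 ± 0.04 (edgeR adjusted p = 5.39e-07). Its counts were fractional, as for Itga6.

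Itgb3 (ENSMUSG00000020689, chr11:104608000-104670476, plus strand), the other RGD-binding partner of Itgav and a subunit best known from platelets and osteoclasts, was at 8.71, 7.67 and 8.73 CPM at 24 h and at 1.98, 2.33 and 1.35 CPM at 48 h. The lowest 24 h library had more than 3 times the level of the highest 48 h library. The log2 fold change was -2.15 ± 0.15 (edgeR adjusted p = 2.71e-09), and the 48 h values rest on 30 to 51 counts per library. In size this and the change of Itga1, given next, were the largest of the members. They differed by less than their standard errors, and over the alternatives run Itgb3 lay between -2.33 and -1.95 and Itga1 between 1.98 and 2.15. When replicate 1 of 24 h or replicate 3 of 48 h was left out, Itga1 had the larger change.

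Of the other subunits, 1 rose and 1 fell. Itga1 (ENSMUSG00000042284, chr13:114953096-115101964, minus strand), which binds collagens with Itgb1, was at 1.45, 1.12 and 1.36 CPM at 24 h and at 5.62, 5.12 and 5.95 CPM at 48 h. The log2 fold change was 2.08 ± 0.16 (edgeR adjusted p = 5.28e-09). Both groups were tight relative to the gap between them, and the 24 h values rest on 23 to 32 counts per library. Itga9 (ENSMUSG00000039115, chr9:118606690-118901003, plus strand), whose gene spans 294.3 kb, the longest of the members, was at 28.94, 30.81 and 31.11 CPM at 24 h and at 15.19, 13.35 and 13.71 CPM at 48 h. It fell by 1.11 ± 0.06 on the log2 scale (edgeR adjusted p = 1.7e-10).

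**Figure D2:**
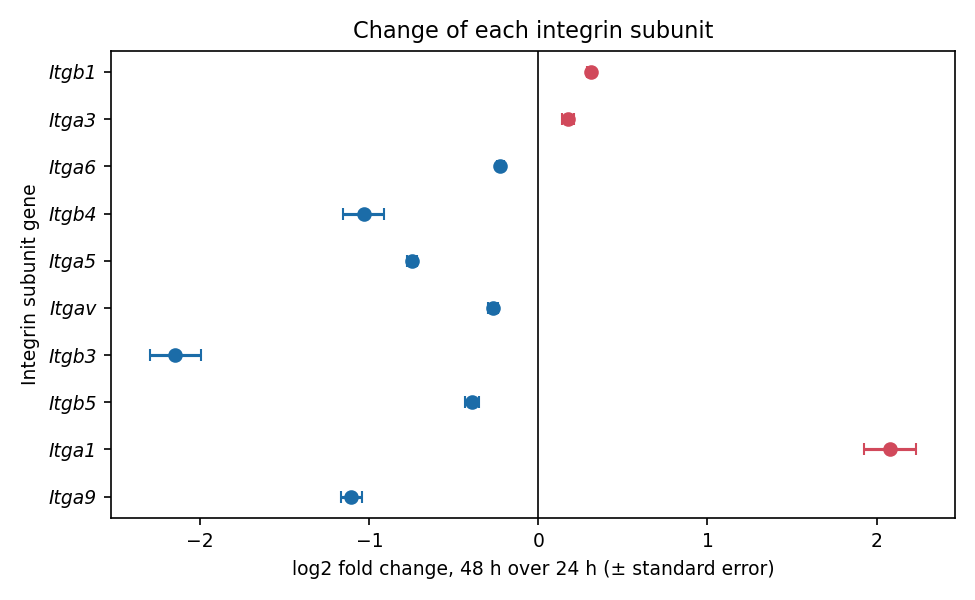
Log2 fold change of each integrin subunit, 48 h over 24 h, with the standard error from edgeR (n = 3 libraries at each time); red points are higher at 48 h and blue points lower. Itgb1, Itga3 and Itga1 are right of zero, and Itgb3 and Itga1 lie farthest out at -2.15 and 2.08.

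Levels of different genes were compared after division by the length of the longest transcript, as TPM, the usual unit of length-scaled abundance relative to the library's sum. At 24 h the order began with Itga6 at 211.3 ± 2.08 TPM (SD, n = 3) and Itgb1 at 171.1 ± 1.55 TPM. At 48 h it began with Itgb1 at 208.4 ± 2.39 TPM and Itga6 at 177.7 ± 4.53 TPM, so these genes had changed places. Next at 24 h came Itga5 at 57.6 ± 0.422, Itgb5 at 40.6 ± 1.46, Itgav at 38.6 ± 0.677 and Itga3 at 29.05 ± 1.12 TPM, and the libraries of Itgb5 and Itgav overlapped. At 48 h Itga5 was at 33.7 ± 0.427, Itga3 at 32.2 ± 0.654, Itgav at 31.5 ± 0.635 and Itgb5 at 30.4 ± 1.26 TPM. There Itga3 overlapped both Itgav and Itgb5, and Itgav overlapped Itgb5. Itga9 went from 10.7 ± 0.412 to 4.88 ± 0.349 TPM. At the bottom at 24 h were Itgb3 (3.58 ± 0.26 TPM), Itgb4 (3.01 ± 0.231 TPM) and Itga1 (0.296 ± 0.0381 TPM). At 48 h Itga1 (1.23 ± 0.0879 TPM) overlapped Itgb4 (1.45 ± 0.172 TPM), and Itgb3 was last (0.794 ± 0.212 TPM). With the mean length of a gene's transcripts in place of the longest, Itgav was above Itgb5 at 24 h as well, with a ratio of 1.22 against 0.95. At 48 h that length gave Itgav 53.8, Itgb5 40.6, Itga5 35.5 and Itga3 33.6 TPM. Both the order of the 4 middle genes and how close they lie thus depend on the length used. The same holds for the lowest genes. With the mean length Itgb4 (2.70 TPM) was above Itgb3 (2.40 TPM) at 24 h. At 48 h Itga1 (1.89 TPM) was then above Itgb4 (1.28 TPM) without overlap.

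Ratios between subunits within a library do not depend on how libraries are scaled. The length-scaled level of Itgb1 over Itga5 was 2.93, 2.98 and 3.002 in the 24 h libraries and 6.01, 6.23 and 6.29 in the 48 h libraries. Itgb1 over Itga6 was 0.792, 0.82 and 0.816 at 24 h and 1.17, 1.15 and 1.20 at 48 h, which is the change of places described above. Itgb1 thus gained on both of these partners, and the ranges at the 2 times were apart. Itgb1 over Itgav went from 4.43 ± 0.111 to 6.62 ± 0.0664 (SD, n = 3). The ratio of Itgav to Itgb3 went from 10.8 ± 0.807 to 41.8 ± 12.5, with a wide spread at 48 h, where Itgb3 had 30 to 51 counts. In contrast, Itgav over Itgb5 was 0.95 ± 0.026 at 24 h and 1.04 ± 0.0624 at 48 h, and here the libraries of the 2 times overlapped. The size of a ratio does depend on the transcript length used: with the mean length, Itgav over Itgb3 was 27.9 at 24 h and 107.7 at 48 h, and Itgb1 over Itgav was 2.86 and 4.26. Both kept their direction between the times.

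All alpha and beta subunits of the mouse that were looked up, 18 and 8 genes, were then put together to see what share each member holds. The 10 members made up 96.6% ± 0.25 (SD, n = 3) of the length-scaled level of all subunits at 24 h and 97.1% ± 0.276 at 48 h. Itgb1 held 74.7% ± 0.72 of the beta pool at 24 h and 84.6% ± 0.925 at 48 h, Itgb5 held 17.7% ± 0.534 and 12.3% ± 0.517, and Itgb3 held 1.56% ± 0.122 and 0.322% ± 0.0861. In the alpha pool Itga6 had 59.3% ± 0.168 at 24 h and 60.9% ± 0.437 at 48 h although its own level fell. Itga5 went from 16.2% ± 0.153 to 11.6% ± 0.251 of the alpha pool, and Itgav was at 10.8% ± 0.0689 and 10.8% ± 0.203. With the mean transcript length Itga5 had 14.2% and 10.3% and Itgav 15.5% and 15.6%, which turns their order at 24 h, and the Itgb3 share of the beta pool was 0.89% and 0.187%. The laminin-binding alpha subunits Itga3, Itga6 and Itga7 together had 67.6% ± 0.0657 at 24 h and 72.04% ± 0.425 at 48 h. The sum of alpha subunits over the sum of beta subunits was 1.56 ± 0.0177 at 24 h and 1.18 ± 0.0231 at 48 h, with no overlap. These are shares of messenger RNA and say nothing of how much receptor stands on the cell surface.

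**Figure D3:**
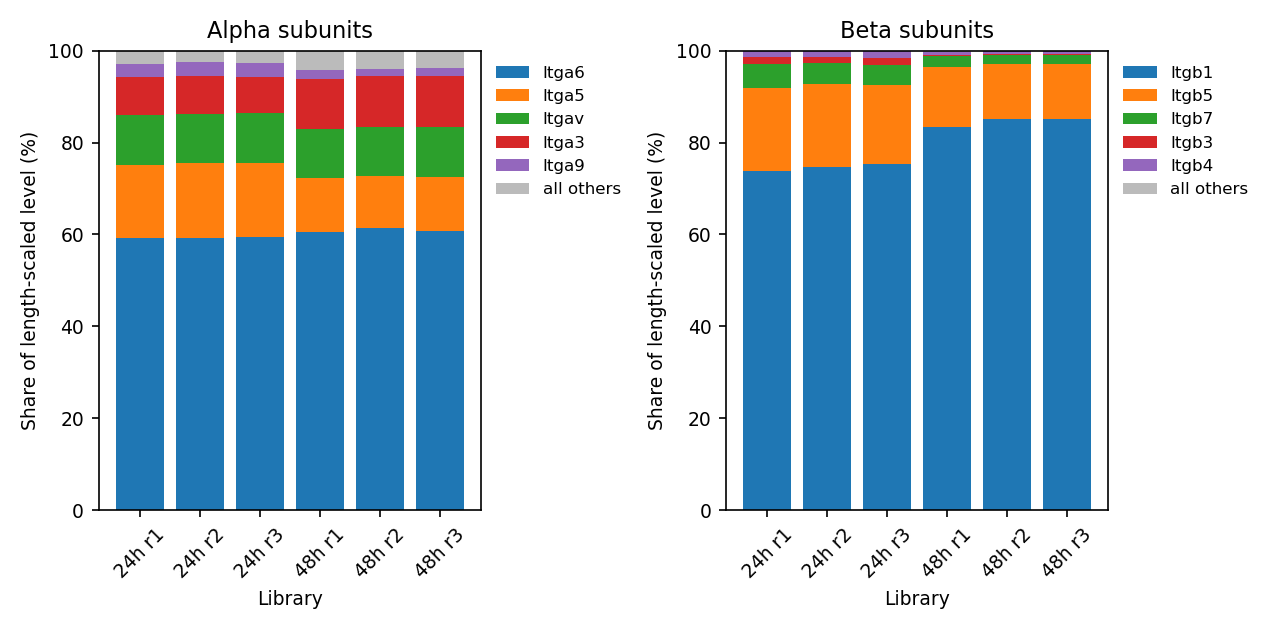
Share of the length-scaled level (TPM, longest transcript) that each subunit holds among 18 alpha subunits (left) and 8 beta subunits (right) in each of the 6 libraries, stacked to 100%; r1 to r3 are replicates. The Itgb1 share is larger in the 48 h libraries and the Itga5 share smaller, while the Itgav share is about the same.

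In 9 of the other 16 integrin subunits there were counts enough to test, and 5 changed, 2 upward and 3 downward. The share called over all genes tested was 62.8%. Itgam, the myeloid alpha subunit, was at 4.67 ± 0.398 CPM (SD, n = 3) at 24 h and rose to 10.5 ± 0.576 CPM (log2 fold change 1.18, edgeR adjusted p = 2.86e-08). Itgb7 and Itgal, which are best known from lymphocytes, fell from 11.6 ± 1.03 to 5.63 ± 0.825 CPM and from 7.37 ± 0.507 to 4.08 ± 0.165 CPM (log2 fold changes -1.04 and -0.86). Itgb2, the partner of Itgam and Itgal in leukocyte receptors, had between 2 and 11 counts in a library. Per length of the longest transcript, Itgb7 at 10.7 ± 0.953 TPM was level with the member Itga9 at 24 h (10.7 ± 0.412 TPM). At 48 h Itgam (5.47 ± 0.316 TPM) and Itgb7 (5.10 ± 0.763 TPM) had means above those of the members Itga9, Itgb4, Itga1 and Itgb3. The libraries of Itga9 overlapped those of both Itgam and Itgb7. With the mean transcript length Itga9 (23.3 and 10.5 TPM) was above Itgb7 (19.4 and 9.16 TPM) at both times and above Itgam at 48 h (5.25 TPM). Itgax and Itgb6 had 0 counts in every library, which allows at most 3 counts or 0.150 CPM in the shallowest of them; this covers counting error only.

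Ligand genes expressed by the same cells were followed in 2 lists. Of 11 laminin chains, the ligands of Itga3 and Itga6, 9 could be tested. All 9 were called, 2 as higher and 7 as lower. Of all genes tested, 62.8% were called, 30.9% upward and 31.9% downward. The median log2 fold change of the laminin chains was -0.77. Lama5, the alpha chain of the laminins that support pluripotent cells, rose from 104.8 ± 2.39 to 124.6 ± 5.98 CPM (log2 fold change 0.25, edgeR adjusted p = 7.38e-06), and Lama1 fell with a log2 fold change of -2.0. Lamc1, the common gamma chain, fell from 618.8 ± 16.3 to 496.4 ± 4.29 CPM and Lamb2 from 40.8 ± 1.26 to 24.0 ± 0.618 CPM, with log2 fold changes of -0.32 and -0.77. Lamb1 was the other chain that rose, and it lost its call with library size as the only scaling (0.08, adjusted p = 0.117) and when replicate 3 of 48 h was left out (0.10, adjusted p = 0.0587), which left 1 chain called upward.

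Of 18 genes for RGD-containing proteins, collagens and other ligands, 13 could be tested. The test called 11, 3 as higher and 8 as lower, at a median log2 fold change of -0.47. This stands beside 62.8% called among all genes tested, 30.9% upward and 31.9% downward. Fn1, encoding fibronectin, was at 1183, 1141 and 1159 CPM at 24 h and at 697.4, 711.1 and 691.2 CPM at 48 h. Its log2 fold change of -0.73 ± 0.02 (edgeR adjusted p = 1.73e-15) stood beside -0.75 ± 0.03 for Itga5, the alpha subunit of its receptor. Spp1, encoding osteopontin, fell from 612.9 ± 32.4 to 233.9 ± 4.55 CPM (log2 fold change -1.39, edgeR adjusted p = 6.57e-16), and its counts were fractional. Mfge8, a secreted RGD protein that binds Itgav receptors, fell by 0.92 on the log2 scale and Tgfb1, whose latent form is activated by such receptors, by 1.51. Fbn1, encoding fibrillin-1, rose by 0.38. The other 2 called higher, Thbs1, encoding thrombospondin-1, and Fbn2, encoding fibrillin-2, had larger log2 fold changes of 1.75 and 1.47 (edgeR adjusted p = 3.63e-09 and 2.1e-07). They went from 1.98 ± 0.0747 to 6.67 ± 0.275 CPM and from 2.46 ± 0.58 to 6.83 ± 0.541 CPM, are below the mean of 5 CPM set for naming a gene, and were chosen after their values were seen. Vtn, the gene of vitronectin, had between 0 and 2 counts in a library.

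Proteins that act on the cytoplasmic tails were taken from a list of 36 activators and adaptors, of which 34 could be tested. The test called 10 as higher and 15 as lower, 25 in all, at a median log2 fold change of -0.15. The background for such calls is 62.8% of genes tested. Talin and kindlin bind the beta tail to activate the receptor: Tln1 fell from 204.8 ± 1.29 to 179.5 ± 6.4 CPM (log2 fold change -0.19) and Fermt2 from 155.1 ± 4.18 to 118.5 ± 0.837 CPM (-0.39), while Tln2 was at 105.9 ± 4.44 and 105.1 ± 5.62 CPM (edgeR adjusted p = 0.843). Bcar1, encoding the adhesion scaffold p130Cas, rose from 96.6 ± 1.71 to 207.5 ± 5.01 CPM (log2 fold change 1.10, edgeR adjusted p = 2.53e-15). Zyx, encoding zyxin of mature focal adhesions, rose by 1.29 and Flna, encoding the actin crosslinker filamin A, by 0.40. The largest falls were those of Tns1, encoding tensin-1, from 78.7 ± 0.311 to 15.06 ± 1.44 CPM (log2 fold change -2.39, edgeR adjusted p = 5.33e-16), Parvb, encoding beta-parvin, from 24.4 ± 0.574 to 5.6 ± 0.349 CPM (-2.12), and Kank2 (-0.79). Ptk2, encoding focal adhesion kinase, rose by 0.32, and Pxn, encoding paxillin, had a log2 fold change of -0.44.

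Membrane partners formed the last list, with 9 genes, of which 8 could be tested. All 8 were called, 3 as higher and 5 as lower, at a median of -0.34, where 62.8% of all genes tested were called. Cd151, the tetraspanin that binds laminin receptors most tightly, rose from 45.3 ± 0.418 to 52.5 ± 0.316 CPM (log2 fold change 0.21, edgeR adjusted p = 7.93e-05). Cd9, another tetraspanin, fell from 286.6 ± 18.8 to 123.9 ± 1.22 CPM (log2 fold change -1.21, edgeR adjusted p = 4.04e-14). Slc3a2, encoding the CD98 heavy chain that binds beta tails, rose by 0.15, whereas Cd63 and Cd47 had log2 fold changes of -0.75 and -0.63. Tspan4, the other gene called higher (log2 fold change 0.23, edgeR adjusted p = 0.0303), was not called with library size as the only scaling (0.17, adjusted p = 0.104), with DESeq2 (0.23, adjusted p = 0.072) or at a threshold of 0.01. It was also not called when replicate 1 or 3 of 24 h (adjusted p = 0.0554 and 0.128) or replicate 1 or 2 of 48 h (adjusted p = 0.0659 and 0.133) was left out. The medians of these lists are set beside -0.01 for all genes tested, as a description.

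**Figure D4:**
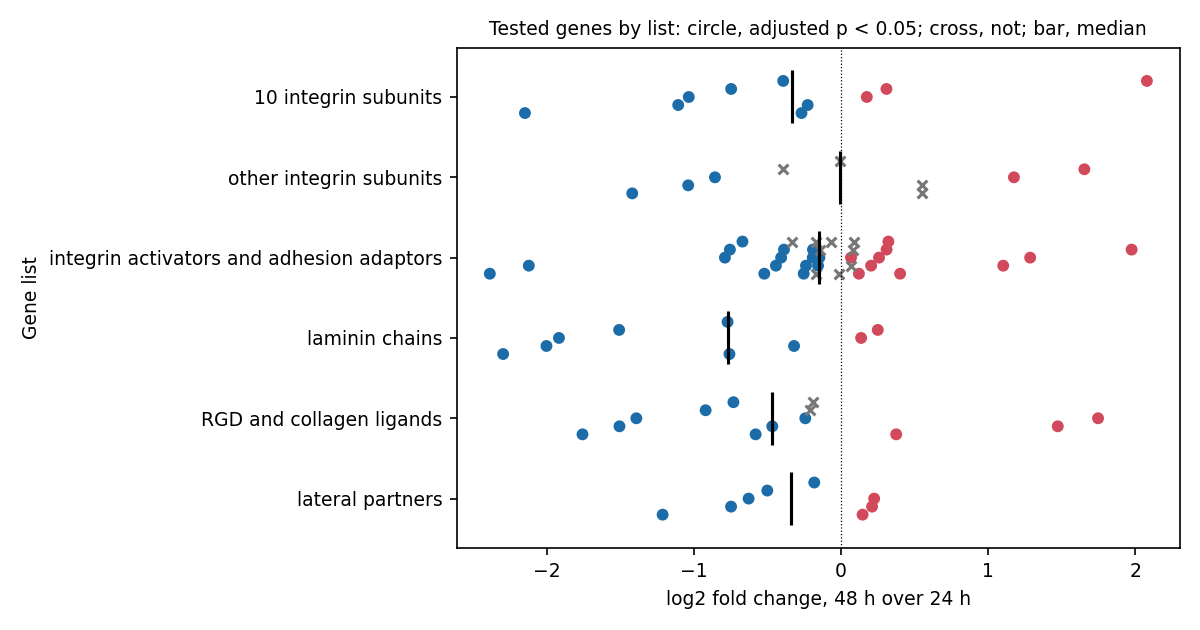
Log2 fold change, 48 h over 24 h, of each tested gene in the 6 lists; circles passed an adjusted p under 0.05 in edgeR (red higher, blue lower at 48 h), crosses did not, and black bars are list medians. The medians lie between -0.77 for laminin chains and -0.01 for the other integrin subunits, and genes of both directions stand in every list.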

How the data were processed

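The deposited table gives the authors' RSEM estimated counts for each Ensembl gene in 6 libraries, not scaled for depth or length. Cutadapt 1.9.1, STAR 2.5.2, RSEM 1.3.0 and the GRCm38 build are named in the submitters' processing notes, while the annotation, strand setting and filters are not given in the sources used here. Each of the 6 columns carried 1 sample's title. Symbols, positions and transcript lengths came from GENCODE M21 (GRCm38), which named 51633 of 51912 identifiers.

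Counts were rounded, filtered with filterByExpr (minimum count of 10; 14889 genes), scaled by TMM and tested with edgeR 4.0.16 (R 4.3.3) by the quasi-likelihood test, group as the only term, with Benjamini-Hochberg adjustment over all genes tested and a threshold of 0.05. The standard error is the log2 fold change divided by the square root of F. CPM are TMM-scaled. The procedure was tested on simulated data. Replicates of a group differed by more than counting noise (chi-square per degree of freedom 1.84 to 2.29) and were counted separately.

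The members, gene lists, the rule for naming listed genes (up to 3 largest rises and falls with a mean of at least 5 CPM, and known partners of members) and tests were chosen with earlier results of these data known. Alternatives were RLE, upper quartile and library-size scaling, other filters, DESeq2 1.42.0, limma 3.58.1 voom, the replicate number as a block, a threshold of 0.01 and leaving out each library. A listed gene that the rule would name is not reported here, though it counts in the totals. Those for the other listed genes and for shares and ratios were added after seeing the data. Itgav and Itgb4 share exon sequence with an opposite-strand gene that had at most 1 count in a library. Exons of Itga1, Itga7, Itgam, Fn1, Spp1, Fbn1, Fbn2, Thbs1, Tln1, Zyx, Cd9, Cd151 and Tspan4 also overlap another annotated gene. For Itga1 (685 bases), Itgam (3450 bases) and Spp1 (309 bases) that gene is on the same strand. The gene at Itga1 was not among the identifiers counted, that at Itgam had 0 counts, and that at Spp1 had 6 to 18.3 counts in a library. The effect of these overlaps was not tested.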

Additional observations from a re-analysis of the deposited data

How the results depend on the processing

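The 10 members were called in the same direction in all 15 alternatives, 150 values in all, with the largest adjusted p at 0.0124 for Itga3 (library size as the only scaling). The counts of 3 members upward and 7 downward held in each of them, those without 1 library included. The count of 4 members with a change of at least 2-fold did not hold in all of them, as the log2 fold change of Itgb4 lay between -1.10 and -0.94. Over these settings the number of changed genes, 9345 in the fit reported, was lowest at 7810 (threshold of 0.01) and highest at 9792 (no filter on low counts), and DESeq2 gave 7986. With the replicate block 9235 genes and all 10 members were called. The deviations of same-numbered libraries correlated at -0.05, -0.04 and -0.01, so equal numbers showed no pairing. Library size as the only scaling took the median log2 fold change over the tested genes from -0.01 to -0.07, and 39.9% of its calls were upward, against 49.2%.

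For the other listed genes, 1044 values held both direction and call, 23 fell short of the threshold, 12 newly passed it and 9 had the opposite sign. The opposite signs were of genes with no call. Itgae was at 0.00138 with RLE scaling and between -0.17 and 0.14 when single libraries were left out, Tln2 between -0.0527 and 0.0212, and Tns2 between -0.25 and 0.0697. Itga7, 1 of the 3 other subunits called lower, was not called when replicate 2 of 48 h was left out (-1.09, adjusted p = 0.050). Requiring 10 counts in every library left 1 of the 2 other subunits called upward, as fewer were tested. With the mean transcript length, the laminin-binding share of the alpha pool was 63.0% at 24 h and 67.7% at 48 h and the Itgb1 share of the beta pool 70.5% and 81.5%. Depth limits the lowest subunits: 7 of the 16 other integrin genes could not be tested.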
